A study of Homo sapiens with 9 samples.

Results

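The genes described here encode immunoglobulin-type cell adhesion molecules, and the 10 members were CADM1, CADM2, CADM3, CADM4, NRCAM, NCAM1, NCAM2, L1CAM, MCAM and ALCAM. They were chosen by symbol, and each symbol matched 1 of the 60675 Ensembl rows of the deposited count table. The RNA came from 3 clones of the BRAF-mutated human melanoma cell line SK-MEL-5. The clones SC10, SC07 and SC01 were each derived from a single cell by limiting dilution without drug and chosen by their first response to the BRAF inhibitor PLX-4720. Every library came from untreated cells, with 3 libraries for SC10, 3 for SC07 and 3 for SC01. The response of each clone is not in the labels, and neither is whether its libraries were grown separately. The p-values therefore measure only the spread among these libraries, and this spread may be technical. Each group is 1 clone, so a clone and the culture or extraction it went through cannot be told apart.

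Immunoglobulin-type adhesion molecules are surface proteins with a row of immunoglobulin domains outside the cell, by which they bind the same or a related molecule on a neighbouring cell. CADM proteins, also called nectin-like or SynCAM proteins, hold on to 4.1 proteins and to scaffold proteins of the MAGUK family through their short cytoplasmic tails. L1CAM and NRCAM belong to the L1 family and anchor to ankyrin. NCAM1 can carry polysialic acid, which weakens adhesion. MCAM and ALCAM were described as melanoma-associated antigens and are also made by endothelial cells, and ALCAM binds CD6 on T cells.

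The 3 clones differed in which of these genes they expressed. CADM1, CADM3, NRCAM and NCAM1 were lower in SC10 and SC07 than in SC01, by 4.06-fold to 665-fold. CADM4, ALCAM and NCAM2 were higher in SC10 and SC07 than in SC01, by 1.22-fold to 11.6-fold. L1CAM was the highest of the members in each clone and did not pass the test in any pair. MCAM and CADM2 were at or near 0 counts in all clones.

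To show the start regions of genes that differed from SC01 in opposite directions, the RefSeq promoter windows (GRCh38.p14, 250 bases before to 50 after the start) of NRCAM and CADM3, lower in SC10 and SC07, are printed with those of CADM4 and ALCAM, higher there. Of the 10 members, 7 had a window in the table used. For NRCAM, which had several, the most upstream was taken. Capitals mark the GC box GGGCGG on either strand, the only one of 5 motifs searched that was found in these 4 windows. The NRCAM window lies at chr7:108456387-108456686 on the minus strand, CADM3 at chr1:159171365-159171664 on the plus strand, CADM4 at chr19:43639801-43640100 on the minus strand and ALCAM at chr3:105366659-105366958 on the plus strand.
NRCAM: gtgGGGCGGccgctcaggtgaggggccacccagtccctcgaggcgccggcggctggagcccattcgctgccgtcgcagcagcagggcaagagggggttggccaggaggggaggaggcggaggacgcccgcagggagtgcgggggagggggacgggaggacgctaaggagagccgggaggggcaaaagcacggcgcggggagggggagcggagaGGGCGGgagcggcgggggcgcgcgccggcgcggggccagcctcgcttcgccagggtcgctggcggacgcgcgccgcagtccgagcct
CADM3: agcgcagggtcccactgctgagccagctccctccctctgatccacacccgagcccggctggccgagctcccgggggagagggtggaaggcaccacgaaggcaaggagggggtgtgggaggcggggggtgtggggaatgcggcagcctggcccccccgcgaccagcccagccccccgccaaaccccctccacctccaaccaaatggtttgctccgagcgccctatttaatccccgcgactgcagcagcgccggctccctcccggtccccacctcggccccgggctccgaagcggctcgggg
CADM4: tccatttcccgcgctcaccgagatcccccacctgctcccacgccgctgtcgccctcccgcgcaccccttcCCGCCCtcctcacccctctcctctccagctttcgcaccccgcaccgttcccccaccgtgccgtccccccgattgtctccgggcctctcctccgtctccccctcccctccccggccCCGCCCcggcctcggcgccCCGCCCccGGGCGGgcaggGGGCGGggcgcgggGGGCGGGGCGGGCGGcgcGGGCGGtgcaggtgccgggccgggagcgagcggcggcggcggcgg
ALCAM: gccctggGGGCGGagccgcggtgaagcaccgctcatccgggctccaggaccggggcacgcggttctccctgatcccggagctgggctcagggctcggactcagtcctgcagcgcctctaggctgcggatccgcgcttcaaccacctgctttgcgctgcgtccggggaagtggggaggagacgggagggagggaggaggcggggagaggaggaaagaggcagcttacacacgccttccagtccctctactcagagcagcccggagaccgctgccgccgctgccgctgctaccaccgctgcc
The GC box was present at 2 places in NRCAM, 0 in CADM3, 9 in CADM4 (some of them overlapping) and 1 in ALCAM, and 45.0% of 35116 windows of the same length hold it. The E-boxes CACGTG and CATGTG, bound by MITF and related factors, the AP-1 motif TGANTCA and the TATA motif TATAAA, each searched on both strands, were not found in these 4 windows. They are present in 7.26%, 11.1%, 7.71% and 11.5% of all windows. Among the member windows not printed, the GC box was present at 2 places in L1CAM, 5 in MCAM and 0 in NCAM2. The NCAM2 window held CATGTG at 1 place, and those of L1CAM and MCAM held neither E-box, no AP-1 motif and no TATA motif. The G and C content was 78.0% in NRCAM, 72.3% in CADM3, 81.0% in CADM4 and 70.0% in ALCAM, against a median of 58.7%.

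Total counts ran from 30224066 to 39454087 per library, and 3 counts in a library correspond to 0.0760 to 0.0993 CPM, the count scaled to library size. SC10 replicate 3 stood apart from the other SC10 libraries (chi-square over its degrees of freedom 9.47 and 10.5 against them, 2.47 between those). Melanocyte markers matched the label, with MLANA, PMEL, TYR, TYRP1, DCT, MITF and S100B each averaging above 100 CPM in each clone. SOX10 had 0 counts in all 9. The share of mitochondrial rRNA was 1.03% to 1.09% in SC10, 0.976% to 1.03% in SC07 and 0.521% to 0.551% in SC01, and so moved with the difference from SC01. So did the larger share of mitochondrial mRNA, at 9.42% to 9.89% in SC10, 8.52% to 8.96% in SC07 and 6.35% to 6.46% in SC01. The part of either share in the results was not tested. Endothelial cells also make MCAM and ALCAM, and of 5 endothelial markers 2 were tested. VWF was higher in SC10 and SC07 than in SC01, and CLDN5 did not pass the test. The summed CPM of the 5 was 5.16 to 5.72 in SC10, 8.66 to 10.7 in SC07 and 3.29 to 3.41 in SC01. CDH5 had 0 counts in SC10 and SC01, and TEK had 0 in SC01. Neurons make several of the members, and 4 neuronal markers summed to 131 to 146 CPM in SC10, 47.9 to 53.5 in SC07 and 50.4 to 55.0 in SC01, mostly SYP. Of these, 3 were tested, and 1 was higher and 1 lower in SC10 than in SC01 (33.5% and 32.4% of all genes tested). In SC07 against SC01, 1 was higher and 1 lower (31.5% and 30.5%), and in SC10 against SC07, 1 was higher and 0 lower (24.8% and 23.0%). Fibroblast markers summed to 335 to 371 CPM in SC10, 427 to 489 in SC07 and 132 to 137 in SC01, mostly LUM, a matrix proteoglycan. Immune markers stayed under 4 CPM and keratinocyte markers under 2 CPM in sum. The part of these markers in the results was not tested.

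Differences between clones were tested with edgeR's quasi-likelihood test over 18009 genes, with Benjamini-Hochberg adjustment and a threshold of 0.05. Of the 10 members, 8 passed the filter on low counts. In SC10 against SC01, 3 were higher and 4 lower, where 33.5% of all genes tested were higher and 32.4% lower, together 65.9%. In SC07 against SC01, 3 were higher and 4 lower, beside 31.5% and 30.5% of all genes, together 62.0%. In SC10 against SC07, 7 were higher and 0 lower, beside 24.8% and 23.0%, together 47.9%. Over the 3 clones at once, 7 of the 8 differed, beside 76.3% of all genes. Taken 1 comparison at a time, most genes also differed in each comparison with SC01 and over the 3 clones, and in SC10 against SC07 47.9% did. These counts describe the members, which were chosen with earlier results of these data known. Whether the counts are particular to the members was not tested. With a change of at least 2-fold as a further condition, 2 were higher and 4 lower in SC10 than in SC01 (11.2% and 8.30% of all genes, 19.5% together). The same condition left 1 higher and 4 lower in SC07 than in SC01 (9.15% and 8.68%, 17.8% together). It left 4 higher and 0 lower in SC10 than in SC07 (5.84% and 2.79%, 8.62% together). The libraries of both clones did not overlap for 7 of the 8 in SC10 against SC01, 7 in SC07 against SC01 and 6 in SC10 against SC07, beside 69.1%, 67.4% and 53.4% of all genes. The median log2 change of the 8 was 0.93 in SC10 against SC07, -0.97 in SC10 against SC01 and -1.89 in SC07 against SC01, beside a median of -0.01 over all genes in each. Any 2 of these comparisons share the libraries of 1 clone and are not independent.

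**Figure D1:**
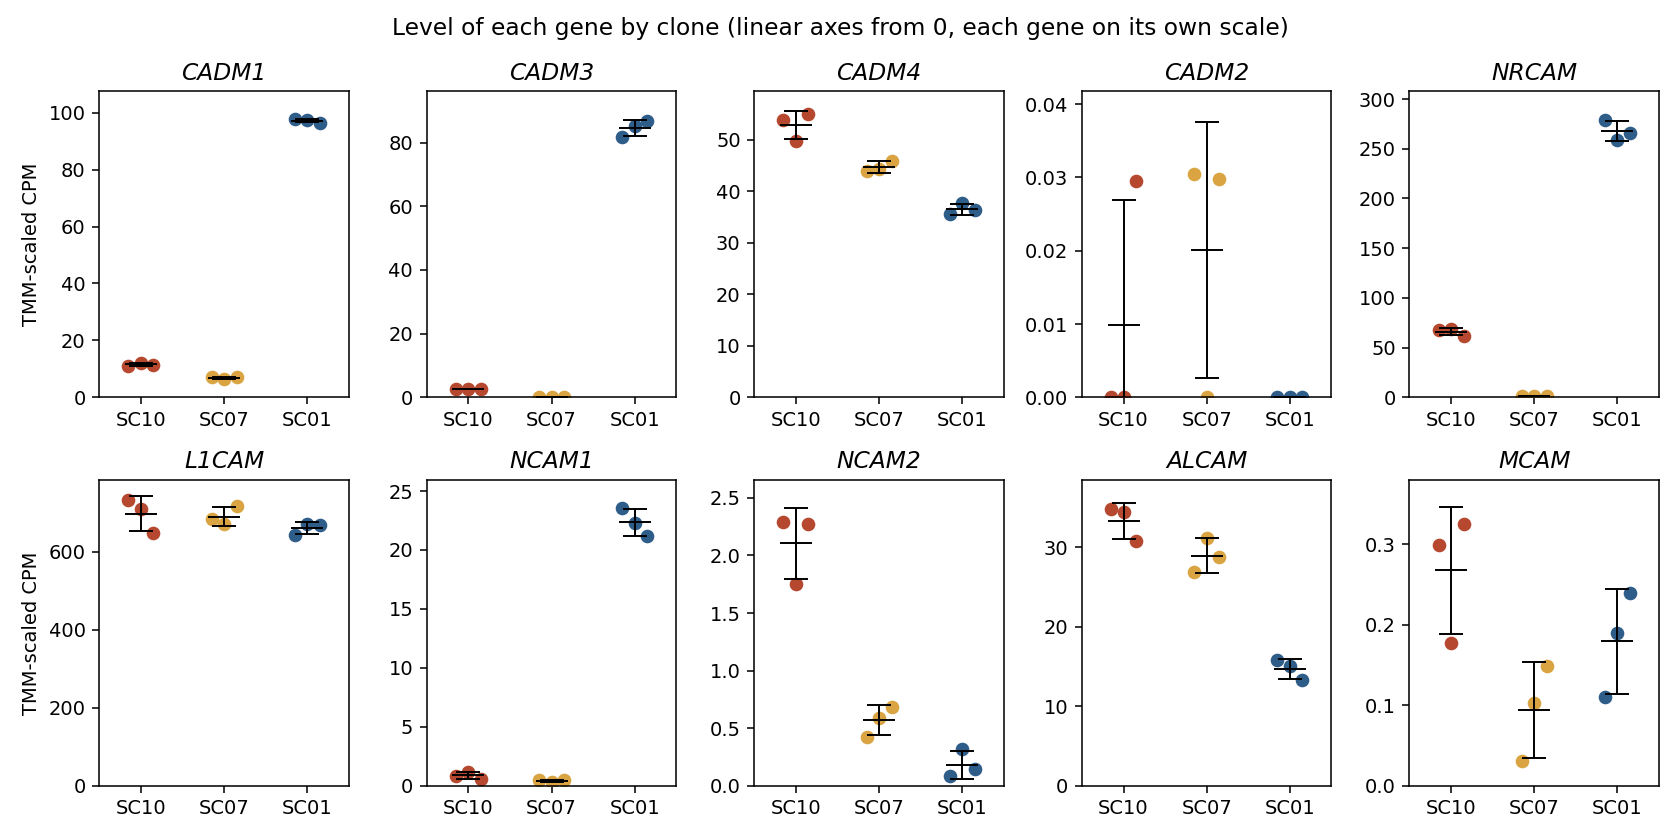
TMM-scaled CPM (y axis, linear from 0, a separate scale for each gene) of the 10 members in the clones SC10, SC07 and SC01 (x axis). Points are libraries, and black marks are the mean and SD of 3 libraries. CADM1, CADM3, NRCAM and NCAM1 are highest in SC01, CADM4, NCAM2 and ALCAM are highest in SC10, and the clones overlap for L1CAM.

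CADM3, a nectin-like molecule best known from neurons (GRCh38 chromosome 1, 159171609 to 159203313), had the largest difference. Its level was 2.51, 2.46 and 2.60 CPM in the SC10 libraries, 0.0609, 0.180 and 0.119 CPM in SC07, and 81.9, 85.2 and 86.8 CPM in SC01. No 2 clones overlapped, and SC07 held only 13 counts over its 3 libraries against 8577 in SC01. The log2 change was -5.07 ± 0.080 (SE of the fit here and below) in SC10 against SC01 (adjusted p = 2.71e-27, edgeR), or 33.5-fold lower in SC10. In SC07 against SC01 it was -9.38 ± 0.13 (adjusted p = 7.58e-29, edgeR), and in SC10 against SC07 4.31 ± 0.23 (adjusted p = 7.92e-15, edgeR). With single libraries left out, these changes ran from -9.80 to -9.09 and from 4.02 to 4.75, beyond the SE on both sides. At 13 counts in SC07 this SE falls short of the counting error. In GENCODE 29, 36.8% of the exon bases of CADM3 overlap ACKR1 or CADM3-AS1, and how reads there were counted is not given in the sources used here.

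CADM1, a tumour suppressor first found in lung cancer that links neighbouring cells (chromosome 11, 115169218 to 115504957), followed the same order. It measured 11.1, 12.0 and 11.5 CPM in SC10, 7.06, 6.26 and 6.96 CPM in SC07, and 97.7, 97.2 and 96.5 CPM in SC01. All SC01 libraries lay above all others, and all SC10 libraries above those of SC07. CADM1 was 8.43-fold lower in SC10 than in SC01, a log2 change of -3.08 ± 0.059 (adjusted p = 2.34e-25, edgeR). It was 14.4-fold lower in SC07 than in SC01 (-3.85 ± 0.064, adjusted p = 5.92e-27, edgeR). SC10 stood 1.71-fold above SC07 (0.77 ± 0.073, adjusted p = 1.24e-09, edgeR). In bulk RNA, fewer cells that express a gene and less RNA in each cell cannot be told apart.

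CADM4, a broadly expressed member of the family (chromosome 19, 43622368 to 43639839), was higher in SC10 and SC07 than in SC01, where CADM1 and CADM3 were lower, and it differed by less. In SC10 against SC07 all 3 of these genes were higher. It measured 53.8, 49.8 and 54.9 CPM in SC10, 43.9, 44.3 and 45.9 CPM in SC07, and 35.6, 37.6 and 36.3 CPM in SC01, with no overlap between clones. The log2 change was 0.53 ± 0.053 in SC10 against SC01, 0.29 ± 0.054 in SC07 against SC01 and 0.24 ± 0.053 in SC10 against SC07 (adjusted p = 1.12e-09, 3.16e-05 and 0.000394, edgeR). CADM2, a neuronal member (chromosome 3, 84958981 to 86074429), had 1 count over the SC10 libraries, 2 over SC07 and 0 over SC01. At these counts no difference was detectable, and no fold is given.

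The shares of CADM1, CADM3 and CADM4 in the CADM family differed between the clones by more than the spread of their libraries. Levels were set per kilobase of exon (GENCODE 29) so that genes can be compared. The length is that of all annotated exons of a gene together, which can exceed that of the transcripts made, and the shares depend on it. For CADM3, 36.8% of these bases overlap other genes. CADM4 took 93.2% ± 0.42 (SD, n = 3) of the summed CADM level in SC10, 96.9% ± 0.12 in SC07 and 34.5% ± 0.53 in SC01. CADM3 took 2.60% ± 0.070 in SC10, 0.152% ± 0.076 in SC07 and 46.7% ± 0.67 in SC01, where it was the largest share. The share of CADM1 was 4.16% ± 0.36 in SC10, 2.99% ± 0.19 in SC07 and 18.7% ± 0.48 in SC01.

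**Figure D2:**
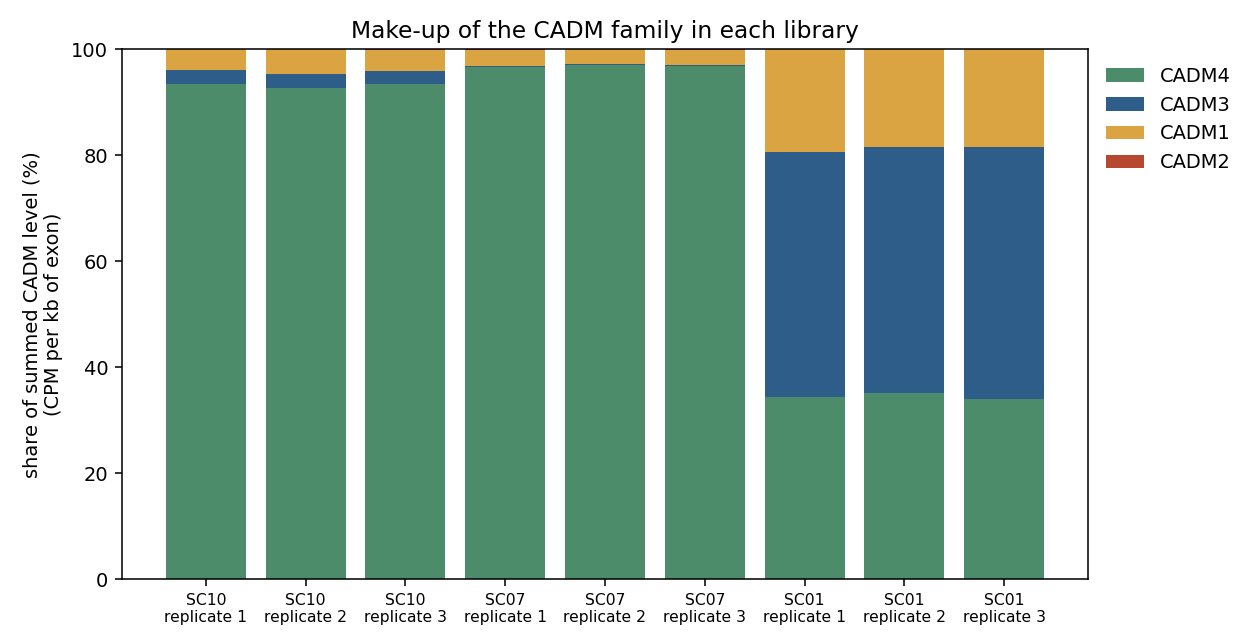
Share of each CADM gene in the summed CADM level (y axis, percent of CPM per kilobase of exon) in each of the 9 libraries (x axis). CADM4 makes up over 90% of each bar of SC10 and SC07, while the bars of SC01 are split between CADM3, CADM4 and CADM1.

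NRCAM, an L1-family molecule that binds ankyrin and guides axons (chromosome 7, 108147623 to 108456717), separated all 3 clones. It measured 67.3, 69.0 and 61.8 CPM in SC10, 1.31, 1.19 and 0.896 CPM in SC07, and 279, 259 and 266 CPM in SC01. No libraries of different clones overlapped, and the SC10 level lay between the other two. NRCAM was 4.06-fold lower in SC10 than in SC01 (-2.02 ± 0.052 on the log2 scale, adjusted p = 1.11e-22, edgeR). It was 236-fold lower in SC07 than in SC01 (-7.88 ± 0.085, adjusted p = 7.20e-31, edgeR). SC10 stood 58.2-fold above SC07 (5.86 ± 0.089), and this had the smallest adjusted p of all members in that pair (1.53e-26, edgeR). SC07 held 119 counts of NRCAM, at which the SE of both changes falls short of the counting error. With single libraries left out, the change ran from -7.99 to -7.75 in SC07 against SC01 and from 5.73 to 5.97 in SC10 against SC07.

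L1CAM, the founding member of the L1 family, tied to invasion in many tumours (chromosome X, 153861514 to 153886174), passed the test in no pair. It measured 733, 710.0 and 648 CPM in SC10, 682, 669 and 716 CPM in SC07, and 642, 671 and 667 CPM in SC01. The libraries of the clones overlapped in every pair. The log2 change was 0.08 in SC10 against SC01 (95% interval -0.01 to 0.17), 0.06 in SC07 against SC01 (-0.03 to 0.16) and 0.02 in SC10 against SC07 (-0.08 to 0.11). The adjusted p was 0.131, 0.245 and 0.791 in edgeR. SC10 replicate 3 was the lowest SC10 library, and without it SC10 passed the test against SC01 at a log2 change of 0.13 (adjusted p = 0.0007, edgeR). When libraries were scaled by their totals alone, the changes against SC01 were -0.03 in SC10 and -0.05 in SC07. Of the summed level of L1CAM and NRCAM per kilobase, NRCAM took 7.53% to 7.94% in SC10, 0.111% to 0.170% in SC07 and 25.5% to 27.8% in SC01.

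NCAM1, the neural cell adhesion molecule that carries polysialic acid (chromosome 11, 112961247 to 113278436), was low in SC10 and SC07. It measured 0.845, 1.19 and 0.591 CPM in SC10, 0.487, 0.284 and 0.478 CPM in SC07, and 23.5, 22.3 and 21.2 CPM in SC01. All SC01 libraries lay above all others. It was 25.5-fold lower in SC10 than in SC01 (-4.67 ± 0.15, adjusted p = 1.42e-20, edgeR) and 54.1-fold lower in SC07 (-5.76 ± 0.17, adjusted p = 1.89e-21, edgeR). With single libraries left out, these changes ran from -4.94 to -4.46 and from -5.89 to -5.52. In SC07 against SC01 the SE falls short of the counting error. SC10 was 2.12-fold above SC07, a log2 change of 1.09 ± 0.27 that rests on 91 counts in SC10 and 43 in SC07 (adjusted p = 0.00152, edgeR).

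NCAM2, its relative known from olfactory neurons (chromosome 21, 20998315 to 21543329), was higher in SC10 and SC07 than in SC01, where NCAM1 was lower, and SC10 lay above SC07 for both genes. It measured 2.29, 1.75 and 2.27 CPM in SC10, 0.426, 0.593 and 0.687 CPM in SC07, and 0.0824, 0.316 and 0.150 CPM in SC01. The clones did not overlap, but SC01 held only 18 counts in all. NCAM2 was higher in SC10 than in SC01 by 3.54 ± 0.35 on the log2 scale, in SC07 than in SC01 by 1.66 ± 0.41, and in SC10 than in SC07 by 1.88 ± 0.28 (adjusted p = 7.87e-10, 0.00102 and 3.27e-06, edgeR). Without SC01 replicate 2, which held 10 of the 18 counts, the change against SC01 was 4.15 in SC10 and 2.27 in SC07. Without SC01 replicate 1 it was 3.17 in SC10 and 1.28 in SC07, the latter at an adjusted p of 0.0136 (edgeR). These were the largest and smallest values with single libraries left out. Per kilobase, NCAM2 made up 78.3% ± 8.3 (SD, n = 3) of the summed level of NCAM1 and NCAM2 in SC10, 67.2% ± 9.6 in SC07 and 1.23% ± 0.80 in SC01.

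ALCAM, an adhesion molecule that binds itself or CD6 (chromosome 3, 105366909 to 105576900), was higher in SC10 and SC07 than in SC01. It measured 34.8, 34.4 and 30.7 CPM in SC10, 26.9, 31.2 and 28.7 CPM in SC07, and 15.8, 15.0 and 13.4 CPM in SC01. The SC01 libraries lay below all others, while those of SC10 and SC07 overlapped. The log2 change was 1.18 ± 0.075 in SC10 against SC01 and 0.98 ± 0.075 in SC07 against SC01 (adjusted p = 7.92e-14 and 5.58e-12, edgeR). The difference of 0.20 ± 0.070 in SC10 against SC07 passed at an adjusted p of 0.0192 (edgeR) and was lost without SC07 replicate 1 (0.121), SC07 replicate 3 (0.0543), SC10 replicate 1 (0.0823) or SC10 replicate 2 (0.0639).

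MCAM, a surface antigen of advanced melanoma and of endothelium (chromosome 11, 119308529 to 119321521), had 11, 6 and 11 counts in SC10, 1, 4 and 5 in SC07, and 4, 6 and 8 in SC01. These correspond to at most 0.325 CPM in a library, and the gene did not pass the filter. With no filter on low counts its log2 change was 0.58 in SC10 against SC01 (95% interval -0.64 to 1.81), -0.88 in SC07 against SC01 (-2.29 to 0.54) and 1.46 in SC10 against SC07 (0.12 to 2.80), with adjusted p of 0.509, 0.419 and 0.117 in edgeR. In GENCODE 29, 7.71% of MCAM exon bases overlap CBL or a microRNA. The annotation release behind the counts is not known here, and neither is the overlap in it. SOX10, another gene known from melanoma cells, was also at 0 counts, with 2.40% of its exon bases overlapping POLR2F in GENCODE 29. The part of the counting in either value was not tested.

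**Figure D3:**
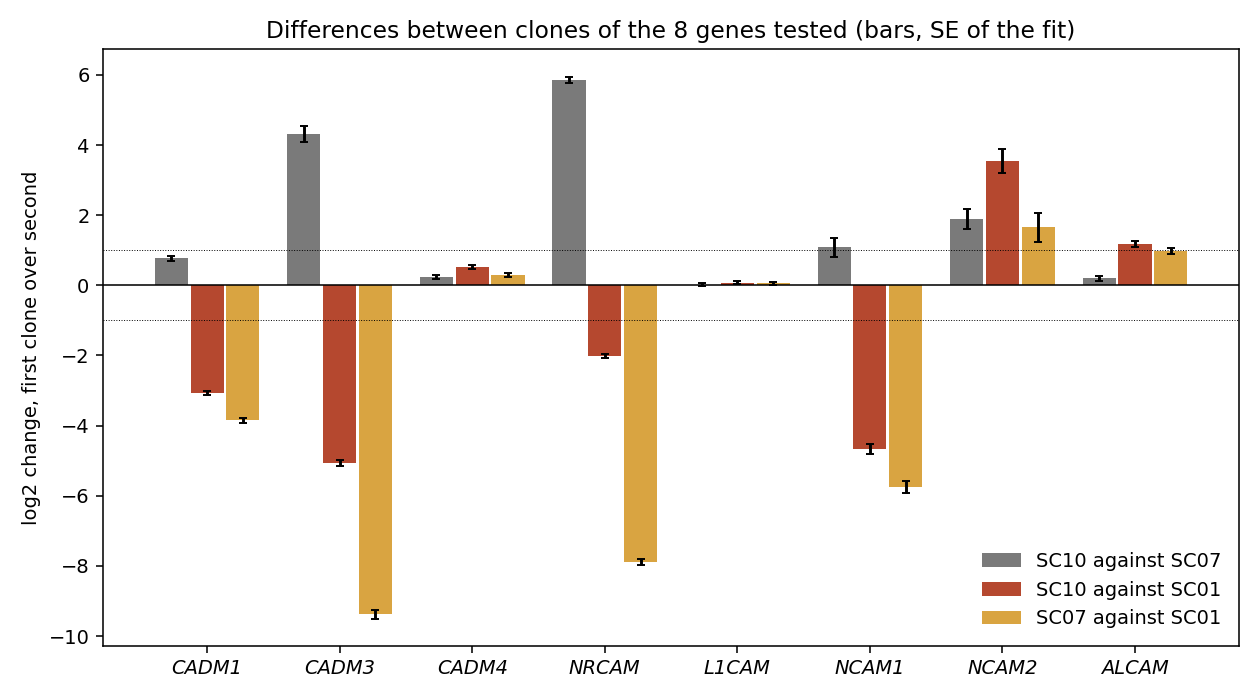
Log2 change (y axis, first clone over second) of the 8 members tested (x axis) in SC10 against SC07, SC10 against SC01 and SC07 against SC01. Error bars are the SE of the fit and dotted lines mark a 2-fold change. The SE can fall short of the counting error where a clone holds few counts, as for CADM3, NRCAM and NCAM1 in SC07. CADM1, CADM3, NRCAM and NCAM1 lie below 0 against SC01, and NCAM2, ALCAM and CADM4 lie above it.

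By level per kilobase of exon, SC10 ran from L1CAM at 95.9 ± 6.1 CPM per kilobase (SD, n = 3) through CADM4 at 23.5 ± 1.2, NRCAM at 8.06 ± 0.46 and ALCAM at 4.64 ± 0.31 to CADM1 at 1.05 ± 0.043. CADM3, NCAM2, NCAM1, MCAM and CADM2 followed below 1. In SC07, L1CAM at 94.8 ± 3.3, CADM4 at 19.9 ± 0.48 and ALCAM at 4.03 ± 0.31 came first, and the other 7 were below 1. There, NCAM1 at 0.0327 ± 0.0090 and CADM3 at 0.0313 ± 0.016 differed by less than their spread. In SC01 the order was L1CAM at 90.8 ± 2.2, NRCAM at 32.7 ± 1.3, CADM3 at 22.0 ± 0.66, CADM4 at 16.3 ± 0.47, CADM1 at 8.82 ± 0.054, ALCAM at 2.05 ± 0.17 and NCAM1 at 1.76 ± 0.091. MCAM and NCAM2 there differed by less than their spread, at 0.0242 ± 0.0088 and 0.0218 ± 0.014. The L1CAM level was above that of 97.5% of the 13591 protein-coding genes tested in each clone.

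The genes whose pattern over the 9 libraries lay nearest to a member were found by the root mean square distance of centred log2 CPM. For CADM1 they were DPP6 (0.145) and NFATC2 (0.162), and for NCAM1 they were NPTX1 (0.322) and FN1 (0.402). CADM3 had SORCS1 (0.806) and TGFBI (1.14), and NRCAM had NT5E (0.920) and SLC43A3 (1.20), which were farther away. In SC10 and SC07, DPP6 stood at only 0.230 and 0.115 CPM, NPTX1 at 0.401 and 0.227, and SORCS1 at 0.769 and 0.105. The log2 CPM used a prior count of 2, which damps changes at such low levels, and its part in these distances was not tested. CADM4 had SLC27A4 (0.0292) and VEPH1 (0.0320), ALCAM had LRCH2 (0.0510) and FAM126B (0.0607), and L1CAM had SF3A1 (0.0285) and MFHAS1 (0.0317). The 9 points come from only 3 clones. For CADM1, 756 other genes had a Pearson correlation over 0.95 with it, so these likenesses are descriptions.

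The proteins that hold these molecules from inside were read from a list of 25 genes, all of which were tested. In SC10 against SC01, 12 were higher and 11 lower (33.5% and 32.4% of all genes). In SC07 against SC01, 11 were higher and 10 lower (31.5% and 30.5%), and in SC10 against SC07, 8 were higher and 7 lower (24.8% and 23.0%). The list medians were 0.17, -0.01 and 0.01 on the log2 scale. EPB41L3, the 4.1 protein that binds CADM1, measured 96.6 ± 3.3 CPM (SD, n = 3 here and below) in SC10, 96.3 ± 4.3 in SC07 and 93.8 ± 1.4 in SC01 and passed the test in no pair. TIAM1, an activator of the GTPase Rac that binds CADM1, was lower in SC10 (1.42 ± 0.29 CPM) and SC07 (2.82 ± 0.29 CPM) than in SC01 (12.8 ± 0.69 CPM), by -3.17 ± 0.14 and -2.17 ± 0.12 on the log2 scale.

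Other 4.1 and MAGUK genes differed in both directions. EPB41L1 was higher in SC10 (50.2 ± 0.85 CPM) and SC07 (37.3 ± 1.6 CPM) than in SC01 (16.4 ± 0.80 CPM), and so was MPP2, a MAGUK, at 35.0 ± 1.2 CPM in SC10 and 37.7 ± 1.5 in SC07, against 13.4 ± 0.25 in SC01. CASK, a MAGUK of synapses, was lower in SC10 (20.8 ± 1.4 CPM) and SC07 (22.3 ± 0.64 CPM) than in SC01 (28.2 ± 0.46 CPM). DLG4, the postsynaptic scaffold PSD-95, was higher in SC10 (12.3 ± 0.38 CPM) and SC07 (10.2 ± 0.50 CPM) than in SC01 (5.11 ± 0.83 CPM). MPP3, which binds the tail of CADM1, was lower in SC10 (5.18 ± 0.64 CPM) and SC07 (5.26 ± 0.35 CPM) than in SC01 (7.94 ± 0.43 CPM). FYN, a kinase downstream of NCAM1, was lower in SC10 (13.1 ± 0.81 CPM) and SC07 (11.8 ± 0.80 CPM) than in SC01 (30.1 ± 1.2 CPM). Among the ankyrins, ANK3 was higher in SC10 (4.12 ± 0.81 CPM) and SC07 (0.921 ± 0.21 CPM) than in SC01 (0.347 ± 0.13 CPM), ANK2 was lower by -0.39 in SC10 and -0.18 in SC07, and ANK1 passed the test in no pair. The ANK2 difference in SC07 against SC01 was lost without SC01 replicate 1 or 2 or SC07 replicate 1 or 3 (adjusted p from 0.0516 to 0.153, edgeR).

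Of 19 outside partners and co-receptors, 15 were tested. In SC10 against SC01, 6 were higher and 6 lower (33.5% and 32.4% of all genes). In SC07 against SC01, 3 were higher and 10 lower (31.5% and 30.5%), and in SC10 against SC07, 7 were higher and 2 lower (24.8% and 23.0%). The last 2 became 1 in 12 of 17 alternatives. The medians were -0.06, -1.09 and 0.26 on the log2 scale. LAMA4, a laminin chain that MCAM binds, was lower in SC10 (68.1 ± 3.5 CPM) and SC07 (56.7 ± 2.7 CPM) than in SC01 (169 ± 3.1 CPM), while the galectin LGALS3 was higher in SC10 (637 ± 26 CPM) and SC07 (649 ± 6.4 CPM) than in SC01 (426 ± 20 CPM). PTPRZ1, a receptor phosphatase that binds contactin and NCAM, measured 6.97 ± 1.1 CPM in SC10, 6.71 ± 0.62 in SC07 and 112 ± 3.9 in SC01. GDNF, a growth factor that can signal through NCAM1, measured 5.60 ± 0.96 CPM in SC10, 1.58 ± 0.27 in SC07 and 13.3 ± 0.84 in SC01. KDR, the VEGF receptor for which MCAM is a co-receptor, was lower in SC10 (3.56 ± 0.10 CPM) and SC07 (5.41 ± 0.53 CPM) than in SC01 (20.8 ± 0.54 CPM). WNT5A, a secreted Wnt protein, was also lower in SC10 (0.718 ± 0.20 CPM) and SC07 (1.10 ± 0.47 CPM) than in SC01 (5.31 ± 0.24 CPM). ITGB3, an integrin chain of receptors that bind L1CAM, was higher in SC10 (31.5 ± 3.3 CPM) than in SC07 (1.47 ± 0.23 CPM) and SC01 (3.10 ± 0.61 CPM), with 51.6% of its exon bases overlapping another gene in GENCODE 29. CD6 and CRTAM, lymphocyte partners of ALCAM and CADM1, had at most 3 counts over any clone.

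Of 13 proteases, inhibitors and polysialyltransferases, 7 were higher and 6 lower in SC10 than in SC01 (33.5% and 32.4% of all genes). The counts in SC07 against SC01 were 4 and 5 (31.5% and 30.5%), and in SC10 against SC07 they were 5 and 3 (24.8% and 23.0%), with medians of 0.25, -0.01 and 0.19 on the log2 scale. ST8SIA2, which builds polysialic acid on NCAM1, had 1, 0 and 3 counts in SC10 and 0, 0 and 2 in SC07, against 147, 161 and 167 in SC01. SC10 and SC07 could not be told apart at these counts. Scaled to TMM-adjusted library size, the ratio of SC01 counts over SC07 counts was 246 (95% counting interval 67.8 to 2038). This ratio rests on 2 counts in SC07 replicate 3. Over the libraries left out in turn, the log2 change in SC07 against SC01 ran from -10.35 to -7.11. The value of -10.35 came without SC07 replicate 3, where SC07 stood at 0 counts and a fitted change is no bound. ST8SIA4, the other such enzyme, was lower in SC10 (2.35 ± 0.76 CPM) and SC07 (1.59 ± 0.49 CPM) than in SC01 (4.37 ± 0.31 CPM). The inhibitor TIMP1 was lower in SC10 (122 ± 7.6 CPM) and SC07 (102 ± 4.3 CPM) than in SC01 (177 ± 5.0 CPM). Of the subunits of gamma-secretase, PSEN2 was higher in SC10 (76.0 ± 2.2 CPM) and SC07 (84.0 ± 4.4 CPM) than in SC01 (58.6 ± 1.5 CPM). APH1B and PSENEN were higher in SC10 (20.2 ± 1.5 and 31.7 ± 2.6 CPM) than in SC07 (13.3 ± 0.87 and 21.5 ± 1.8 CPM) and SC01 (14.3 ± 1.3 and 19.2 ± 0.85 CPM). APH1A, another subunit, named after its values were seen, was lower in SC10 (212 ± 8.1 CPM) than in SC07 (238 ± 8.7 CPM) and SC01 (234 ± 7.2 CPM). For PSENEN, 56.5% of exon bases overlap other genes. ADAM17, which sheds ALCAM, was higher in SC10 by 0.25 and in SC07 by 0.22 on the log2 scale than in SC01, and lost both calls when libraries were scaled by their totals alone. ADAM10, which sheds L1CAM, was higher in SC10 (111 ± 4.8 CPM) than in SC07 (84.5 ± 4.7 CPM) and SC01 (84.9 ± 1.7 CPM). BACE1, a protease that cuts CHL1, a relative of L1CAM, was lower in SC10 (26.6 ± 2.1 CPM) and SC07 (23.3 ± 0.60 CPM) than in SC01 (54.5 ± 3.9 CPM), with 43.3% of its exon bases overlapped.

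**Figure D4:**
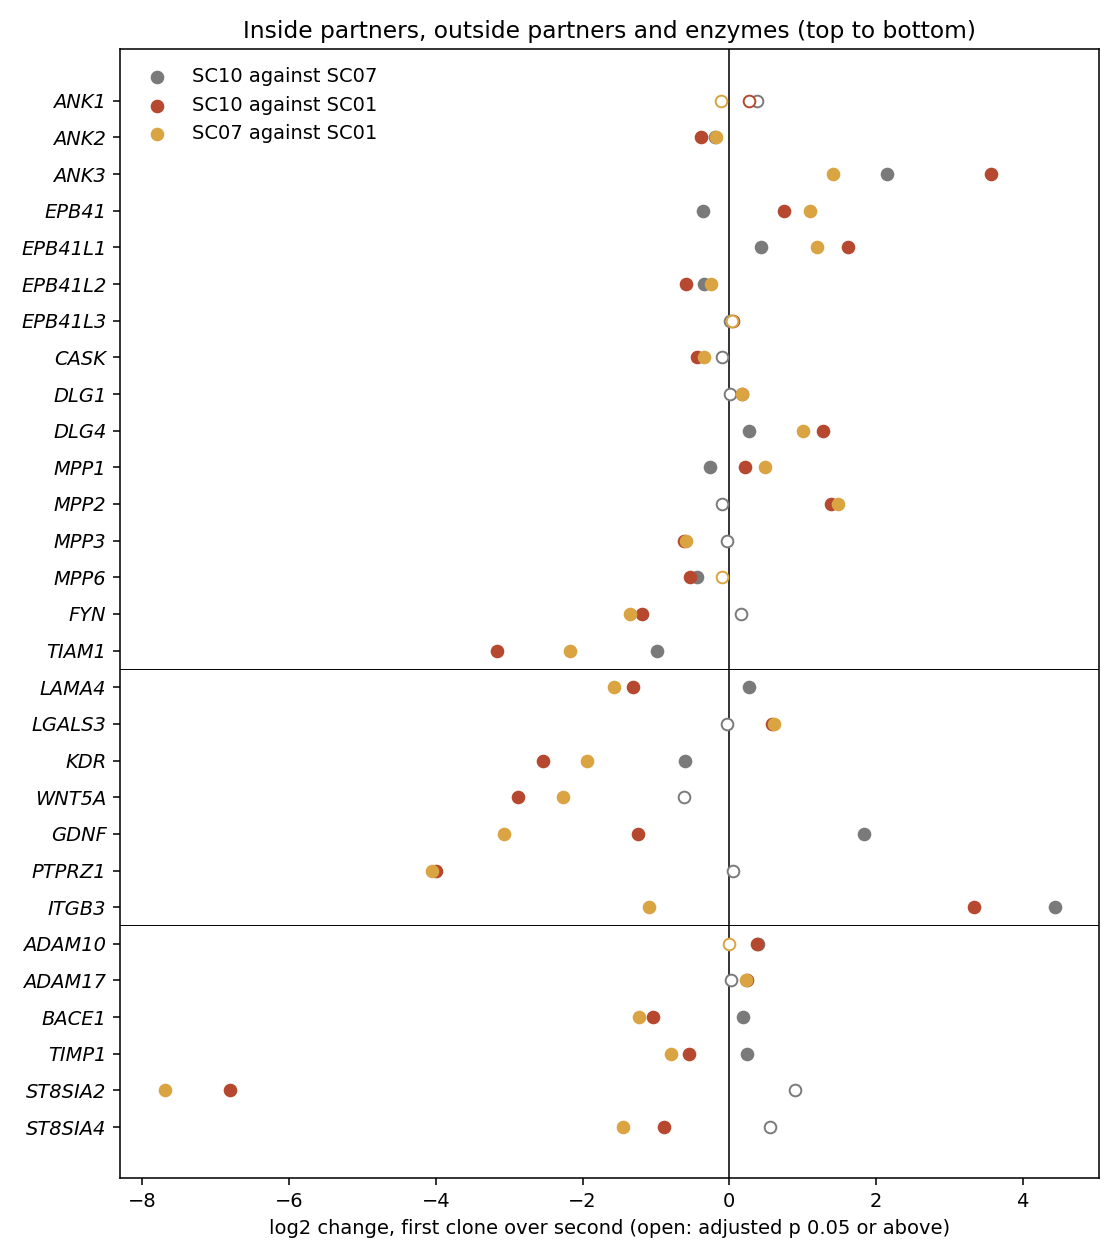
Log2 change (x axis, first clone over second) of partners inside the cell, partners outside it and processing enzymes (y axis, from top to bottom) in SC10 against SC07, SC10 against SC01 and SC07 against SC01. Filled points passed an adjusted p of 0.05 and open points did not. ST8SIA2 lies farthest to the left against SC01, and EPB41L3 lies near 0 in each pair.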

How the data were processed

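RNA was sequenced from 9 libraries, and the authors deposited raw counts per Ensembl gene. The submitters' processing notes name GRCh38, HISAT2 and featureCounts. No version, annotation release, strand setting or treatment of shared reads is given in the sources used here. Names, positions and exon lengths came from GENCODE 29, which held 57055 of 60675 IDs. Clone and replicate came from the labels.

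Genes were kept with filterByExpr (18009), and TMM scaling and a robust quasi-likelihood fit to all 9 libraries came from edgeR 4.0.16 (R 4.3.3). Every pair of clones was tested. CPM is TMM-scaled, and SE is the log2 change over the root of F. This SE can fall short of the counting error where a clone holds few counts, as for CADM3, NRCAM and NCAM1 in SC07. Intervals of count ratios and floors of 3 counts cover counting error only. The fit was tested on simulated data.

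The members and lists were chosen with earlier results of these data known. From each list, up to 5 genes with the largest change past the threshold and a mean of at least 5 CPM were named, plus partners named by role. Alternatives were library totals, DESeq2 size factors, DESeq2 1.42.0, limma-voom 3.58.1, no filter, 1 CPM in 3 libraries, the 2 clones alone, a replicate block and leaving out each library. Promoter sequences are RefSeq's.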

Additional observations from a re-analysis of the deposited data

How the results depend on the processing

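The counts of members called stayed within 1.5 times under every alternative run. Leaving out single libraries, 6 to 7 members were higher in SC10 than in SC07, and 3 to 4 were higher in SC10 than in SC01. When libraries were scaled by their totals alone, the median of all genes moved to -0.12 in SC10 and SC07 against SC01. This turned the uncalled L1CAM changes to -0.0325 and -0.0453 and those of EPB41L3 to -0.0673 and -0.0685, and DLG1 in SC10 against SC07 to -0.00218. With no filter, DLG1 stood at -0.00105 there and ADAM10 in SC07 against SC01 at 0.00287. None of these passed the test, and the cause was not tested. Other sign changes came from leaving out single libraries and concerned uncalled values, which lay near 0 except for ST8SIA2. In SC10 against SC07 the ranges were -0.0130 to 0.0758 for L1CAM, -0.0331 to 0.0420 for CNTN1, -0.0469 to 0.177 for PTPRZ1, -0.0225 to 0.0431 for EPB41L3, -0.0217 to 0.0211 for DLG1, -0.0759 to 0.0826 for MPP3, -0.0513 to 0.00312 for LGALS3, -0.0280 to 0.0967 for ADAM17 and -0.34 to 3.54 for ST8SIA2, which held 6 counts there. In SC07 against SC01 they were -0.0440 to 0.0357 for ADAM10 and -0.201 to 0.000785 for ANK1. With replicate number as a block, 7 members were higher in SC10 than in SC07, 3 higher and 4 lower in SC10 than in SC01, and 3 higher and 4 lower in SC07 than in SC01, and 8754, 11926 and 11249 of all genes were called. Deviations of libraries with the same number correlated at -0.02 to 0.04, with 0 of 9 pairs over 0.1, so the numbers were not taken as pairs. Each library correlated best with its own number in 10 of 18 cases. Depth limits MCAM, CADM2, NCAM2 in SC01 and CADM3 in SC07, each with at most 28 counts in a clone.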

Other observations

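Beside the members, 32 of 44 other immunoglobulin adhesion molecules were tested. In SC10 against SC01, 17 were higher and 8 lower (33.5% and 32.4% of all genes), with a median of 0.30 on the log2 scale. In SC07 against SC01, 13 were higher and 11 lower (31.5% and 30.5%), with a median of 0.09. In SC10 against SC07, 16 were higher and 6 lower (24.8% and 23.0%), with a median of 0.27. The median over all genes was -0.01 in each.

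The 5 named here had the largest changes in the list among those with at least 5 CPM, and do not stand for the rest. Other members that passed the test went the other way, such as NTM, SDK1, ICAM1 and JAM3, lower in both SC10 and SC07 than in SC01. The log2 changes were -0.68 and -2.30 for NTM, -1.18 and -1.13 for SDK1, -0.91 and -0.81 for ICAM1, and -0.69 and -2.19 for JAM3. NTM held only 37 counts in SC07, and SDK1 only 28 in SC10 and 29 in SC07. CHL1 was lower in SC07 than in SC01 (-0.87) but higher in SC10 than in SC01 (0.30). NTM, SDK1, ICAM1, JAM3 and CHL1 were chosen after their values were seen. ROBO2, a receptor of axon guidance, measured 13.0 ± 1.9 CPM (SD, n = 3) in SC10, 6.42 ± 0.22 in SC07 and 0.395 ± 0.18 in SC01. CNTN1, a contactin, measured 27.9 ± 1.6 CPM in SC10, 27.8 ± 0.70 in SC07 and 1.98 ± 0.28 in SC01. CNTN3, another contactin, measured 6.24 ± 0.065 CPM in SC10, 5.58 ± 0.60 in SC07 and 0.947 ± 0.32 in SC01. LSAMP, a GPI-anchored molecule of the limbic system, measured 47.2 ± 2.7 CPM in SC10, 21.8 ± 0.25 in SC07 and 5.57 ± 1.1 in SC01. NFASC, an L1-family relative of NRCAM, measured 20.2 ± 1.2 CPM in SC10, 2.87 ± 0.46 in SC07 and 3.50 ± 0.35 in SC01. NFASC was higher in SC10 than in both other clones. Its log2 change of -0.29 in SC07 against SC01 had an adjusted p of 0.0616 in edgeR. It passed the test when libraries were scaled by their totals alone, at -0.39 (adjusted p = 0.0119, edgeR). It also passed with the filter of 1 CPM in 3 libraries (adjusted p = 0.0443, edgeR). The same held without SC01 replicate 2 (0.0334) or SC07 replicate 3 (0.0253), and it did not pass in the other alternatives.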
